A study of Homo sapiens with 12 samples.

Results

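The genes described are 3 EGR transcription factor genes, the early response genes IER2 and IER3, 4 DUSP phosphatase genes and the Sprouty gene SPRY4. These 10 genes, out of 26334 gene symbols in the table, were chosen by name as early outputs and feedback inhibitors of ERK signalling. The choice was made with earlier results of these data known. RNA was measured by poly(A) sequencing in HK-2, an immortalised line from the epithelium of the human proximal tubule, with cells that carried a doxycycline-inducible PRCC-TFE3 gene, a fusion found in translocation renal carcinoma. Cells were kept for 48 h with doxycycline (Dox) plus MSC2530818 at 100 nM, with Dox alone, with MSC2530818 alone, or with the vehicle DMSO alone, with 3 libraries in each of the 4 groups. MSC2530818 inhibits CDK8 and CDK19, the kinases of the Mediator complex. All groups carried the inducible gene, were under puromycin and blasticidin selection and grew in medium with 1.5% serum. None received Dox without the fusion gene, so effects of Dox and of the fusion cannot be told apart, and the labels do not say whether the line is a clone.

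ERK is the last kinase of the RAS, RAF and MEK cascade, which growth factors switch on. Active ERK leads within minutes to transcription of early genes such as EGR1, in part through serum response factor (SRF) and its ETS partners at CArG boxes, and later to transcription of inhibitors that switch the cascade off: DUSP phosphatases dephosphorylate ERK and related kinases, and Sprouty proteins act further upstream. In proximal tubule cells these genes are known to respond to injury and growth factors. CDK8 is known from other human cell lines as a coactivator of serum response genes.

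The deposited values are FPKM, fragments scaled by transcript length and library total, so levels of different genes can be set beside each other. FPKM sums ran from 429208 to 473950 per library, replicate 1 had the highest sum in each group, and the absolute depth is unknown. Of the epithelial markers KRT8, KRT18 and PAX8 were abundant (222.6 to 358 FPKM for KRT8 over the group means). In the same list the cadherin gene CDH1 and PAX2 had group means of at most 0.0067 and 0.05 FPKM. Another cadherin gene, CDH2, averaged 44.5 to 88.2 FPKM. The proximal tubule transporters SLC22A6 and SLC22A8 were listed at 0 in all 12 libraries, and LRP2, CUBN and SLC34A1 had group means of at most 0.073 FPKM. Of the 11 proximal tubule markers 1 reached 1 FPKM, the brush border enzyme gene GGT1, at 38.9 FPKM with Dox plus inhibitor, 48.4 with Dox and 42.7 with inhibitor, against 39.7 in DMSO. Endothelial markers summed to 0 to 0.19 FPKM per library, and those of distal tubule and collecting duct to 0.11 to 0.55. Of 3 podocyte markers only PODXL reached 1 FPKM (group means of 4.95 to 8.99). Of 4 fibroblast markers only COL1A1 did (3.48 to 4.33). Of 4 leukocyte markers only CD68, a lysosomal gene that other cell types express as well, reached 1 FPKM, and it averaged 31.0 FPKM with Dox plus inhibitor, 56.0 with Dox and 27.9 with inhibitor, against 38.6 in DMSO. The 10 epithelial markers, of which 8 reached 1 FPKM, summed to 762 to 810 FPKM per library with Dox plus inhibitor, to 611 to 638 with Dox and to 966 to 1099.5 with inhibitor, against 761 to 876 in DMSO. The part of these shifts in the results was not tested. TFE3, which takes up reads of the fusion, averaged 84.2 ± 3.1 FPKM with Dox plus inhibitor and 150 ± 4.0 with Dox, against 27.8 ± 1.7 with inhibitor and 35.8 ± 3.1 in DMSO (SD, n = 3 each). It was thus lower with Dox plus inhibitor than with Dox alone, and the part of that difference in the comparisons with Dox was not tested.

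Genes with at least 1 FPKM in at least 3 libraries were tested, 12649 in all. Of the 10 genes, EGR1, IER2, IER3, DUSP1, DUSP5, DUSP6 and SPRY4 were tested, and these 7 reached 1 FPKM in all 12 libraries. EGR2, EGR3 and DUSP4 did not pass this filter, with a highest value of 0.42 FPKM. A gene was called when its adjusted p from limma was under 0.05. Changes are differences of log2(FPKM + 1) with their SE. This scale understates the change of genes with a low FPKM, such as DUSP6, SPRY4 and, in the groups with inhibitor, EGR1. FPKM are means ± SD over n = 3 libraries, and in bulk RNA fewer expressing cells and less RNA per cell cannot be told apart.

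The inhibitor separated the genes. Without Dox, EGR1 fell to 18.3% of its DMSO level and IER2 fell as well, whereas DUSP5, SPRY4, IER3 and DUSP1 rose and DUSP6 was not called. In this comparison 11.7% of all tested genes were called higher and 26.3% lower, 38% in either direction, against 4 higher and 2 lower of the 7. In the presence of Dox, EGR1 and IER2 were lower with the inhibitor and DUSP5, DUSP1 and IER3 higher, 5 of the 7, where 11.3% of all genes were called higher and 20.8% lower (32.1% in either direction). This count was 3 without Dox replicate 1 or Dox replicate 3.

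Dox moved the genes one way. Without inhibitor IER2, IER3, EGR1, DUSP1 and DUSP6 fell, 5 of the 7, and none rose, where 7.31% of all tested genes were called lower and 10.6% higher (17.9% in either direction). With the inhibitor present, IER3, IER2, SPRY4, DUSP5, DUSP6 and DUSP1 fell with Dox, 6 of the 7, where 6.06% of all genes were called lower and 12.2% higher (18.2% in either direction). The first count was 2 without DMSO replicate 1, Dox replicate 1 or Dox replicate 3 and 3 without Dox replicate 2. The second was 2 without inhibitor replicate 2 and 3 without inhibitor replicate 1 or Dox plus inhibitor replicate 2 or 3. Fitted with the replicate number as a block over all 12 libraries, it remained 6, while the count over all genes was 4548 with the block and 2304 without it. That block also spans groups that were not taken as paired by number, so it is no paired fit of this second comparison alone.

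The share of higher genes among all calls depended on the scaling between libraries. For the inhibitor without Dox it was 30.8% on the deposited scale, 55% with median-ratio scaling and 49.7% with quantile normalization, and with Dox 35.3%, 53.9% and 50.3%. For Dox without inhibitor it was 59.2%, 43.4% and 43.3%, and with inhibitor 66.7%, 35.3% and 41%. Median-ratio scaling moved the median change of all genes under the inhibitor without Dox by 0.11, to -0.01. Over all genes it called 2220 higher and 1815 lower for the inhibitor without Dox, and 1956 and 1675 with Dox. For Dox it called 1036 higher and 1350 lower without inhibitor, and 658 and 1208 with it. After that scaling the 6 calls of the inhibitor without Dox held, with EGR1 at -1.80, IER2 at -0.44, IER3 at 0.49, DUSP1 at 0.40, DUSP5 at 1.07 and SPRY4 at 0.55.

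**Figure D1:**
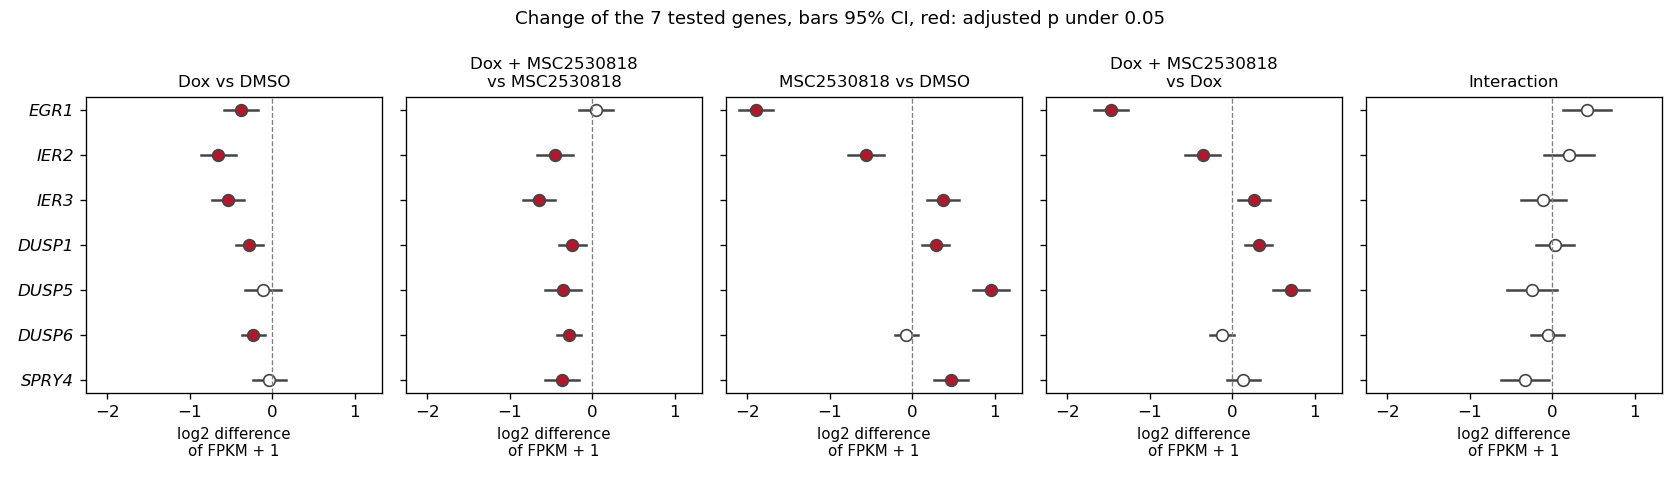
Change of each of the 7 tested genes (points) with its 95% confidence interval (bars), as the difference of log2(FPKM + 1), in 4 comparisons and in their interaction; red points have an adjusted p under 0.05. EGR1 lies at -1.89 for the inhibitor against DMSO while DUSP5 lies at 0.95, and none of the 7 is red in the interaction panel.

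EGR1 encodes a zinc finger transcription factor made within minutes of ERK activation (chromosome 5, 138465490 to 138469315, plus strand, GRCh38). It stood at 1.62, 1.54 and 1.79 FPKM with Dox plus inhibitor, at 5.97, 6.73 and 6.24 with Dox, at 1.64, 1.58 and 1.47 with inhibitor, and at 9.24, 9.27 and 7.12 in DMSO. All 6 libraries with the inhibitor lay below all 6 without it, and the inhibitor libraries with and without Dox overlapped. The change with inhibitor alone was -1.89 ± 0.09 (adjusted p = 1.2e-07), which placed it 28th of 12649 genes by size of change. With Dox plus inhibitor it was at 26.1% of its level with Dox (-1.46 ± 0.09, adjusted p = 8.1e-07). These calls held under all alternatives that could be fitted, from -2.37 to -1.79 without Dox and from -1.87 to -1.37 with it. Dox alone lowered EGR1 to 6.31 ± 0.39 FPKM, against 8.54 ± 1.23 in DMSO (-0.38 ± 0.09, adjusted p = 0.017), a call that ended without any one of DMSO replicates 1 and 2 and Dox replicates 1 and 3 (-0.37 to -0.32, adjusted p = 0.06 to 0.077), with these groups fitted alone (0.055) and without replicate 1 of all groups (-0.29, adjusted p = 0.13). Under the inhibitor EGR1 averaged 1.65 ± 0.13 FPKM with Dox and 1.56 ± 0.09 without it, a difference of 0.05 with a 95% interval of -0.16 to 0.25 (adjusted p = 0.74).

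The 250 bases upstream of the EGR1 start are shown because they carry CArG boxes, the kind of site through which SRF is known to drive this gene (RefSeq, GRCh38.p14, chr5:138465229-138465478, plus strand; capitals mark CArG boxes).
EGR1: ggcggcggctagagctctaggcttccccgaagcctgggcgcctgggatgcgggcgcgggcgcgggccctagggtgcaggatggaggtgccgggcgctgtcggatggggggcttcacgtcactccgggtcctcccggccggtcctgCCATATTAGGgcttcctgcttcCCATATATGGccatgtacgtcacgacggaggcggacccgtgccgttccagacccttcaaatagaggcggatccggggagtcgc
The search of both strands found CArG boxes with first bases at -105 and -83 from the start. Bases further upstream were not searched. Among 35116 RefSeq windows of 300 bases, from 250 before to 50 after a start, 1.29% held at least 1 such box. Entries were at hand for 6 of the 10 genes, EGR2 with more than 1 start, and of these EGR1 and EGR2 held a CArG box. A match describes the sequence and shows no binding.

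SRF itself, taken from the list of ERK cascade genes, went the other way from EGR1 under the inhibitor. It stood at 37.7, 38.2 and 37.2 FPKM with Dox plus inhibitor, at 16.6, 16.4 and 16.3 with Dox, at 38.5, 36.3 and 36.3 with inhibitor, and at 22.4, 20.4 and 18.3 in DMSO. The 6 libraries with inhibitor lay above the 6 without it. SRF rose by 0.84 ± 0.06 without Dox (adjusted p = 3e-06) and by 1.15 ± 0.06 with Dox (adjusted p = 3.1e-07). Dox alone lowered it (-0.28 ± 0.06, adjusted p = 0.011), a call that ended when DMSO and Dox libraries were fitted without the other groups (adjusted p = 0.053).

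**Figure D2:**
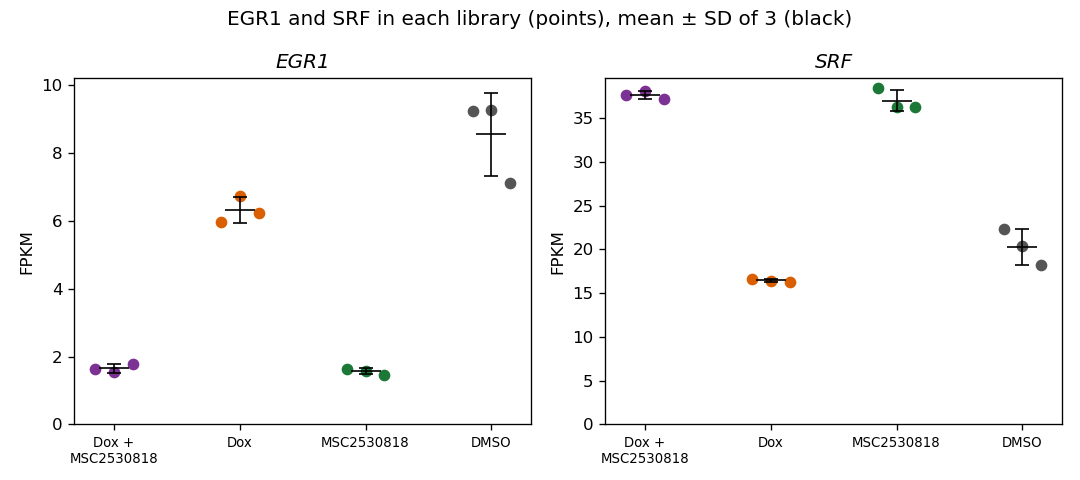
FPKM of EGR1 (left) and SRF (right) in each of the 12 libraries (points) with the mean and SD of 3 libraries (black). EGR1 averages 1.65 and 1.56 FPKM in the groups with MSC2530818, against 6.31 and 8.54 without it, whereas SRF averages 37.7 and 37.0 with it, against 16.5 and 20.3 without it.

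EGR2 and EGR3, close relatives of EGR1 with the same zinc finger DNA-binding domain, were near the bottom of the scale. EGR2 (chromosome 10) stood at 0.25, 0.23 and 0.11 FPKM with Dox plus inhibitor, at 0.42, 0.40 and 0.18 with Dox, at 0.34, 0.13 and 0.12 with inhibitor, and at 0.16, 0.24 and 0.30 in DMSO. Its groups overlapped throughout. EGR3 (chromosome 8) ran from 0 to 0.09 FPKM and was listed at 0 with Dox in replicates 2 and 3 and in DMSO replicate 3. Fitted with no filter on low values, neither gene was called in any comparison.

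IER2, which encodes a nuclear protein of the early response (chromosome 19, 13150415 to 13154908, plus strand), was lower under each treatment and lowest under both together. Its values were 13.3, 11.5 and 11.7 FPKM with Dox plus inhibitor, 16.2, 14.3 and 17.2 with Dox, 18.9, 17.4 and 14.9 with inhibitor, and 27.5, 25.4 and 23.7 in DMSO. DMSO libraries lay above all others, Dox plus inhibitor libraries below all others, and the single treatments overlapped. Dox lowered IER2 by -0.66 ± 0.10 (adjusted p = 7.8e-04) and, in the presence of inhibitor, by -0.45 ± 0.10 (adjusted p = 0.0098). The inhibitor lowered it by -0.56 ± 0.10 without Dox (adjusted p = 0.001) and by -0.36 ± 0.10 with Dox (adjusted p = 0.016). This last call ended after median-ratio scaling (-0.27, adjusted p = 0.058), after quantile normalization (-0.28, adjusted p = 0.06) and without any one of Dox replicates 1 and 3 and Dox plus inhibitor replicates 2 and 3 (-0.34 to -0.30, adjusted p = 0.054 to 0.068). The other 3 calls held under all alternatives.

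IER3, whose product is known to influence cell survival and the duration of ERK activity (chromosome 6, 30743199 to 30744554, minus strand), was among the more abundant of the 10 genes and moved with the inhibitor in the direction opposite to IER2. It stood at 68.4, 55.7 and 56.0 FPKM with Dox plus inhibitor, at 49.2, 51.0 and 48.5 with Dox, at 103.6, 92.2 and 86.9 with inhibitor, and at 76.8, 72.3 and 68.0 in DMSO. The inhibitor libraries were the highest and the Dox libraries the lowest, and Dox plus inhibitor overlapped with DMSO through replicate 1. Dox lowered IER3 without inhibitor (-0.53 ± 0.09, adjusted p = 0.0015) and with it (-0.64 ± 0.09, adjusted p = 7.9e-04). The inhibitor raised it without Dox (0.37 ± 0.09, adjusted p = 0.0062). With Dox the rise was 0.26 ± 0.09 (adjusted p = 0.039), and it was not called without any one of DMSO replicate 2, Dox replicates 1 to 3, inhibitor replicate 2 and Dox plus inhibitor replicate 1 (0.17 to 0.28, adjusted p = 0.054 to 0.13) or with no filter (adjusted p = 0.06).

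**Figure D3:**
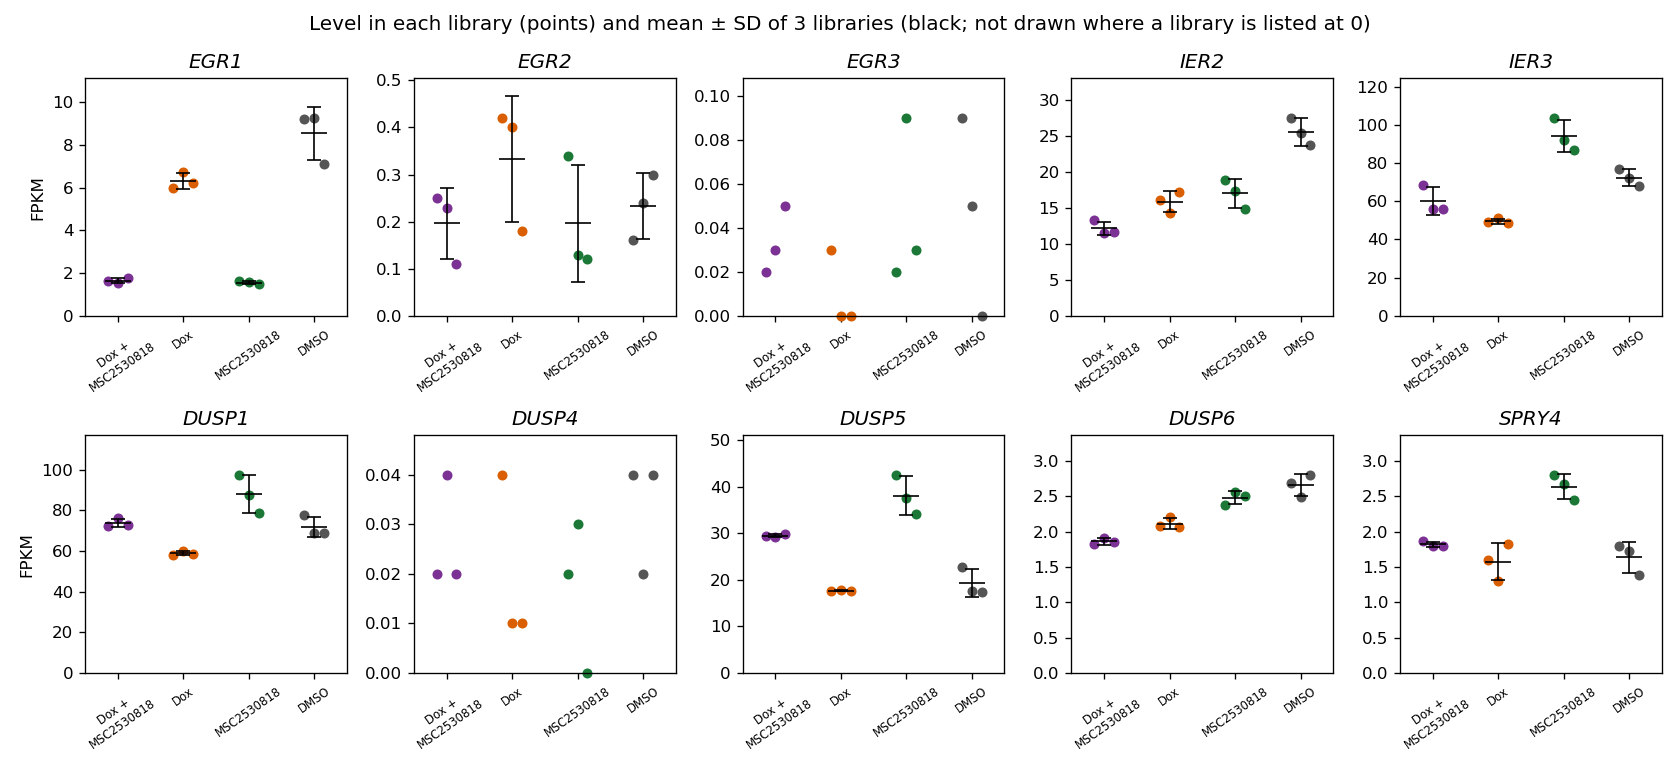
FPKM of each of the 10 genes in every library (points) with the mean and SD of 3 libraries (black, left out for EGR3 and DUSP4, which are listed at 0 in some libraries); each panel has its own vertical scale from 0. EGR1 is low in both groups with MSC2530818, DUSP5 is high in both, and EGR2, EGR3 and DUSP4 stay below 0.5 FPKM.

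Among the phosphatases, DUSP1, DUSP4 and DUSP5 act in the nucleus and DUSP6 in the cytoplasm. DUSP5 and DUSP6 are selective for ERK, whereas DUSP1 also acts on p38 and JNK. DUSP1 was the most abundant of them, at 59.0 to 88.0 FPKM over the group means. DUSP5 followed at 17.6 to 38.1 FPKM and DUSP6 at 1.86 to 2.66 FPKM. DUSP4 (chromosome 8) ran from 0 to 0.04 FPKM, was listed at 0 in inhibitor replicate 3, and was not called in any comparison fitted with no filter.

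DUSP5 (chromosome 10, 110497838 to 110511544, plus strand) had the largest rise of the 7 genes under the inhibitor. Its values were 29.5, 29.1 and 29.8 FPKM with Dox plus inhibitor, 17.5, 17.7 and 17.6 with Dox, 42.5, 37.5 and 34.2 with inhibitor, and 22.8, 17.5 and 17.5 in DMSO. All 6 libraries with inhibitor lay above all 6 without it, and Dox and DMSO libraries overlapped. The inhibitor raised DUSP5 to 1.98 times its DMSO level (0.95 ± 0.10, adjusted p = 2.6e-05) and, with Dox, to 1.67 times its level with Dox alone (0.71 ± 0.10, adjusted p = 2.5e-04), and both calls held under all alternatives (0.87 to 1.07 and 0.70 to 0.79). In the presence of inhibitor DUSP5 averaged 29.5 ± 0.35 FPKM with Dox and 38.1 ± 4.2 without it (-0.35 ± 0.10, adjusted p = 0.031), a call that ended without any one of inhibitor replicates 1 and 2 and Dox plus inhibitor replicates 1 to 3 (-0.36 to -0.27, adjusted p = 0.062 to 0.099) and with no filter (adjusted p = 0.052). Without inhibitor the Dox difference was -0.11, with a 95% interval of -0.33 to 0.10 (adjusted p = 0.46).

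DUSP1 (chromosome 5, 172768090 to 172771195, minus strand) showed smaller differences. It stood at 72.5, 76.2 and 73.0 FPKM with Dox plus inhibitor, at 58.2, 60.2 and 58.8 with Dox, at 97.5, 87.8 and 78.8 with inhibitor, and at 77.8, 69.1 and 69.1 in DMSO. Dox libraries were the lowest, inhibitor libraries the highest, and Dox plus inhibitor overlapped with DMSO. The inhibitor raised DUSP1 by 0.28 ± 0.07 without Dox (adjusted p = 0.011, and 0.069 when these groups were fitted alone) and by 0.32 ± 0.07 with Dox (adjusted p = 0.007), and the second call held under all alternatives. Dox lowered it by -0.28 ± 0.07 (adjusted p = 0.023), a call that ended without any one of DMSO replicate 1 and Dox replicates 1 to 3 (-0.29 to -0.22, adjusted p = 0.055 to 0.082). In the presence of inhibitor the fall with Dox was -0.24 ± 0.07 (adjusted p = 0.043). It was not called with no filter (adjusted p = 0.063), with no intensity trend (0.054), with these groups fitted alone (0.11), or without any one of DMSO replicate 2, Dox replicates 1 to 3, inhibitor replicates 1 and 2 and Dox plus inhibitor replicates 1 to 3 (-0.27 to -0.17, adjusted p = 0.06 to 0.13). Without replicate 1 of all groups it was -0.16 (adjusted p = 0.083).

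Upstream bases of DUSP1 and IER2 are shown beside those of EGR1 because these genes were called in opposite directions under the inhibitor (RefSeq, GRCh38.p14; DUSP1 at chr5:172771196-172771445, minus strand; IER2 at chr19:13150161-13150410, plus strand). Capitals mark the cAMP response element TGACGTCA and the E-box CACGTG, the core of sites that TFE3 is known to bind, in DUSP1, and the ETS core CCGGAAG on either strand in IER2.
DUSP1: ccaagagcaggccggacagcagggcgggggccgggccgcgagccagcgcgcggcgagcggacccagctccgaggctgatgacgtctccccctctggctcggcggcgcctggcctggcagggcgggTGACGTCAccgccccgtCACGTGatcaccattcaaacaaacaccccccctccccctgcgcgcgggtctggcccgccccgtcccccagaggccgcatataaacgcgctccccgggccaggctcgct
IER2: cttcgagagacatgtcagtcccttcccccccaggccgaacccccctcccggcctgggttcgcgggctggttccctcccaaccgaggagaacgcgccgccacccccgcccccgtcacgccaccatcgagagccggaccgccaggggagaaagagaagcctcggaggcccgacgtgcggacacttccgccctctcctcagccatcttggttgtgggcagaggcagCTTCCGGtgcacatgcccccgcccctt
Of the 35116 windows, 1.85% held TGACGTCA, 7.26% held CACGTG and 10.3% held CCGGAAG on either strand. Of the 6 genes with a window, DUSP1 alone held TGACGTCA, DUSP1 and EGR2 held CACGTG, and IER2 alone held CCGGAAG. The shorter site TGACGT, contained in TGACGTCA, was in DUSP1, EGR1 and EGR2, against 7.98% of windows, so it did not set DUSP1 apart from EGR1. In EGR1 its first bases lay at -136 and -67. A search for the EGR site GCGNGGGCG found it in EGR1, EGR2 and SPRY4, against 9.43% of windows. These searches used both strands, TGACGTCA overlapped none of the marked E-boxes, and a missing match says only that the letters are not in the window.

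DUSP6 (chromosome 12, 89347232 to 89353271, minus strand), the cytoplasmic ERK phosphatase, followed Dox and was not called for the inhibitor. It stood at 1.82, 1.91 and 1.85 FPKM with Dox plus inhibitor, at 2.08, 2.20 and 2.06 with Dox, at 2.38, 2.56 and 2.50 with inhibitor, and at 2.68, 2.49 and 2.80 in DMSO. All 6 Dox libraries lay below all 6 without Dox. The Dox plus inhibitor libraries also lay below those with Dox alone, whereas inhibitor and DMSO libraries overlapped. The Dox difference was -0.23 ± 0.06 without inhibitor (adjusted p = 0.029) and -0.28 ± 0.06 with it (adjusted p = 0.013). The first call ended without any one of DMSO replicates 1 and 3 and Dox replicates 1 to 3 (-0.25 to -0.20, adjusted p = 0.055 to 0.098), with these groups fitted alone (0.084) and without replicate 1 of all groups (-0.22, adjusted p = 0.14). The second ended without inhibitor replicate 2 (-0.27, adjusted p = 0.05), with its groups alone (0.062) and without replicate 1 of all groups (-0.29, adjusted p = 0.051). For the inhibitor the difference was -0.07 without Dox (95% interval -0.21 to 0.07, adjusted p = 0.41) and -0.12 with Dox (-0.26 to 0.02, adjusted p = 0.18).

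SPRY4 (chromosome 5, 142310427 to 142326455, minus strand), a Sprouty inhibitor of receptor signalling to RAS and RAF, was highest with the inhibitor alone. Its values were 1.86, 1.80 and 1.79 FPKM with Dox plus inhibitor, 1.60, 1.30 and 1.82 with Dox, 2.80, 2.67 and 2.44 with inhibitor, and 1.79, 1.73 and 1.38 in DMSO. The inhibitor libraries lay above all others, and neighbouring groups among the other 3 overlapped. The inhibitor raised SPRY4 without Dox (0.47 ± 0.09, adjusted p = 0.0024), a call that held under all alternatives that could be fitted. With Dox the inhibitor difference was 0.14 (95% interval -0.07 to 0.34, adjusted p = 0.31). Dox lowered SPRY4 in the presence of inhibitor (-0.37 ± 0.09, adjusted p = 0.021), and this call ended without any one of inhibitor replicates 1 and 2 and Dox plus inhibitor replicates 2 and 3 (-0.36 to -0.34, adjusted p = 0.063 to 0.069) and without replicate 1 of all groups (-0.35, adjusted p = 0.081). Without inhibitor the Dox difference was -0.03 (95% interval -0.24 to 0.17, adjusted p = 0.82).

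The interaction asks whether the Dox difference changed when the inhibitor was present. None of the 7 genes was called by limma, against 2.82% of all tested genes (0.909% higher and 1.91% lower), and 2 had an unadjusted p under 0.05. EGR1 had an interaction of 0.42 ± 0.13 (95% interval 0.13 to 0.72, adjusted p = 0.14) and SPRY4 one of -0.33 ± 0.13 (-0.62 to -0.04, adjusted p = 0.27). EGR1 was called without DMSO replicate 3 (0.54, adjusted p = 0.025) and after removal of length and GC trends (0.43, adjusted p = 0.029). The remaining genes ran from -0.24 (DUSP5) to 0.20 (IER2). The differences with and without inhibitor are thus not shown to differ for these genes. The comparisons share groups of libraries with each other, so their values are not independent.

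Base composition moved with the Dox differences. Across 11996 tested genes with a GENCODE transcript, the Dox change and the GC content of the longest transcript had a rank correlation of -0.39 without inhibitor and -0.56 with it, and the inhibitor change one of 0.22 without Dox and 0.08 with it. These are descriptions across genes of the same libraries. The GC content of the 7 tested genes ran from 46.7% (DUSP6) to 61.7% (IER2), against a median of 48.2% over tested genes. With length and GC trends removed, the counts were again 5 lower for Dox without inhibitor and 6 lower with it, 4 higher and 2 lower for the inhibitor without Dox, and 3 higher and 2 lower with Dox. Over all 11996 genes this fit called 1461 higher and 1846 lower for Dox without inhibitor, and 1112 and 1237 with it. For the inhibitor it called 2391 higher and 2769 lower without Dox, and 2322 and 2436 with Dox. Calls in either direction were more numerous in this fit than on the deposited scale in each of these comparisons.

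Other genes of the pathway were taken from lists. Of 25 ERK cascade genes 23 were tested. The share called was 4.35% for Dox without inhibitor and 13% with it, below the 17.9% and 18.2% of all tested genes. For the inhibitor it was 21.7% both without and with Dox, below the 38% and 32.1% of all genes. The counts are thus no result about this list. For Dox without inhibitor 1 fell, SRF, and the median was 0.09, against 0.04 over all tested genes. The inhibitor without Dox raised 1 and lowered 4, with SRF at 0.84, NRAS, a RAS gene, at -0.49 and the RAF kinase gene ARAF at -0.36, at a median of -0.06 against -0.12 over all. With Dox 1 rose and 4 fell, with the ERK gene MAPK3 at -0.42 (-0.36, adjusted p = 0.053, without Dox replicate 2) and ARAF at -0.29. For Dox in the presence of inhibitor NRAS (0.36) and the SRF coactivator gene MKL2 (0.30) were higher and the ETS factor gene ELK3 (-0.43) lower. NRAS and MKL2 were not called after median-ratio scaling (0.27 and 0.24, adjusted p = 0.059 and 0.12), MKL2 also not after quantile normalization (0.19). None of these 3 calls held without any one of Dox plus inhibitor replicates 2 and 3. With length and GC trends removed NRAS was at 0.08 (adjusted p = 0.39). NRAS was also lost without inhibitor replicate 1 (0.30 to 0.34 over these), MKL2 also without DMSO 2 or 3, Dox 1 to 3 or inhibitor 1 or 2 (0.20 to 0.35), and ELK3 also without DMSO 2, Dox 1 to 3, inhibitor 2 or 3 or Dox plus inhibitor 1 (-0.48 to -0.34). Under median-ratio scaling the cascade counts were 3 lower for Dox, 1 lower for Dox with inhibitor, 3 higher and 3 lower for the inhibitor and 2 higher and 2 lower for it with Dox. With length and GC trends removed, 21 cascade genes could be tested. The counts were then 3 higher and 3 lower for Dox, 1 lower for Dox with inhibitor, 5 higher and 4 lower for the inhibitor, and 3 higher and 4 lower for it with Dox. These counts too are no result about this list, as that fit called more of all genes as well.

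Of 20 further feedback inhibitors 17 were tested. The share called was 35.3% for Dox without inhibitor, against 17.9% of all tested genes, and 23.5% for Dox with inhibitor, against 18.2%. For the inhibitor it was 29.4% both without and with Dox, below the 38% and 32.1% of all genes. The list medians were 0.00 and 0.05 for Dox without and with inhibitor, against 0.04 and 0.08 over all genes, and -0.10 and -0.04 for the inhibitor without and with Dox, against -0.12 and -0.08. Dox without inhibitor lowered 4, SPRY2 the furthest (-0.48), and raised 2, the Sprouty-related gene SPRED3 (0.38) and DUSP10 (0.37), a phosphatase of p38 and JNK. The inhibitor without Dox raised 2, DUSP10 (0.53) and the EGF receptor inhibitor gene ERRFI1 (0.46), and lowered 3, with RGS2, a regulator of G protein signalling, at -1.07. With length and GC trends removed 5 were higher and 4 lower in this comparison, beside 2391 higher and 2769 lower over all genes. With Dox it raised ERRFI1 (0.68) and lowered 4, RGS2 (-0.43) and DUSP2 (-0.41) the furthest, where median-ratio scaling left 2 lower. The RGS2 call was lost after median-ratio scaling (-0.36, adjusted p = 0.051) and without any one of Dox 1, Dox 3 and Dox plus inhibitor 1 (-0.40 to -0.34). The DUSP2 call was lost after quantile normalization (-0.33, adjusted p = 0.07) and without any one of Dox 2 and 3 and Dox plus inhibitor 2 and 3 (-0.41 to -0.33). For Dox in the presence of inhibitor RGS2 was higher (0.55, and 0.49 with adjusted p = 0.056 without Dox plus inhibitor replicate 3), and 3 were lower, the ERK phosphatase gene DUSP7 (-0.43) and SPRY2 (-0.31) among them. With length and GC trends removed 3 were higher and 6 lower there, beside 1112 higher and 1237 lower over all genes. SPRY2 was not called there without any one of inhibitor 1 and 2 and Dox plus inhibitor 2 and 3 (-0.32 to -0.24).

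Of 15 further ERK output genes 14 were tested. The share called was 71.4% for Dox without inhibitor and 78.6% with it, against 17.9% and 18.2% of all tested genes. For the inhibitor it was 85.7% without Dox and 50% with Dox, against 38% and 32.1%. Dox without inhibitor lowered 10 and raised 0, at a median of -0.43 against 0.04 over all tested genes, with the transcription factor gene MYC at -0.74, the cytokine gene LIF at -0.62 and the AP-1 gene FOSL1 at -0.48. In the presence of inhibitor Dox lowered 10 and raised 1 (median -0.45 against 0.08), with the chromatin protein gene HMGA1 at -0.84, the ETS factor gene ETV4 at -0.82 and the cyclin gene CCND1 at -0.60. The inhibitor without Dox raised 8 and lowered 4 (median 0.33 against -0.12), with CCND1 at 0.69, the urokinase receptor gene PLAUR at 0.65 and the ETS factor gene ETV1 at -0.76. With Dox it raised 5 and lowered 2 (median 0.15 against -0.08), with MYC at 0.75, PHLDA1 at -0.82 and ETV1 at -0.74. Under median-ratio scaling these counts were 11 lower, 12 lower, 9 higher and 3 lower, and 7 higher and 2 lower. MYC averaged 120.4 ± 5.8 FPKM with Dox plus inhibitor, 71.0 ± 1.5 with Dox and 178 ± 3.8 with inhibitor, against 119.8 ± 10.3 in DMSO.

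Of 29 further immediate early genes 25 were tested. The share called was 48% for Dox without inhibitor and 36% with it, against 17.9% and 18.2% of all tested genes. For the inhibitor it was 60% without Dox and 76% with Dox, against 38% and 32.1%. Dox without inhibitor lowered 11 and raised 1, at a median of -0.20 against 0.04 over all, with the AP-1 gene JUNB and the matricellular gene CTGF at -0.89 each and the kinase gene SGK1 at -0.82. In the presence of inhibitor Dox lowered 7 and raised 2 (0 after median-ratio scaling), at a median of -0.10 against 0.08. JUNB was at -0.77, the NF-kB inhibitor gene NFKBIA at -0.61 and KLF6 at -0.52. The inhibitor without Dox raised 10 and lowered 5 (median -0.01 against -0.12), and the largest changes were rises, NFKBIA at 1.16, CTGF at 0.66 and KLF6 at 0.61. With Dox it raised 10 and lowered 9 (11 and 6 after median-ratio scaling), at a median of 0.11 against -0.08. The largest changes were rises, CTGF at 1.46, SGK1 at 1.22 and NFKBIA at 0.96. Of the 4 genes listed as EGR corepressors and cofactors 3 were tested. The share called was 0% for Dox without and with inhibitor, against 17.9% and 18.2% of all tested genes. For the inhibitor it was 33.3% without and with Dox, against 38% and 32.1%, so the counts are no result about this list. The inhibitor without Dox lowered SP1 (-0.31), which encodes a factor that binds GC-rich sites. With Dox SP1 was called (-0.17), but not after median-ratio scaling (-0.09, adjusted p = 0.2), quantile normalization (-0.09) or removal of the GC trend (-0.14), nor without any one of Dox 1 and 2 and Dox plus inhibitor 3 (-0.17 to -0.15).

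**Figure D4:**
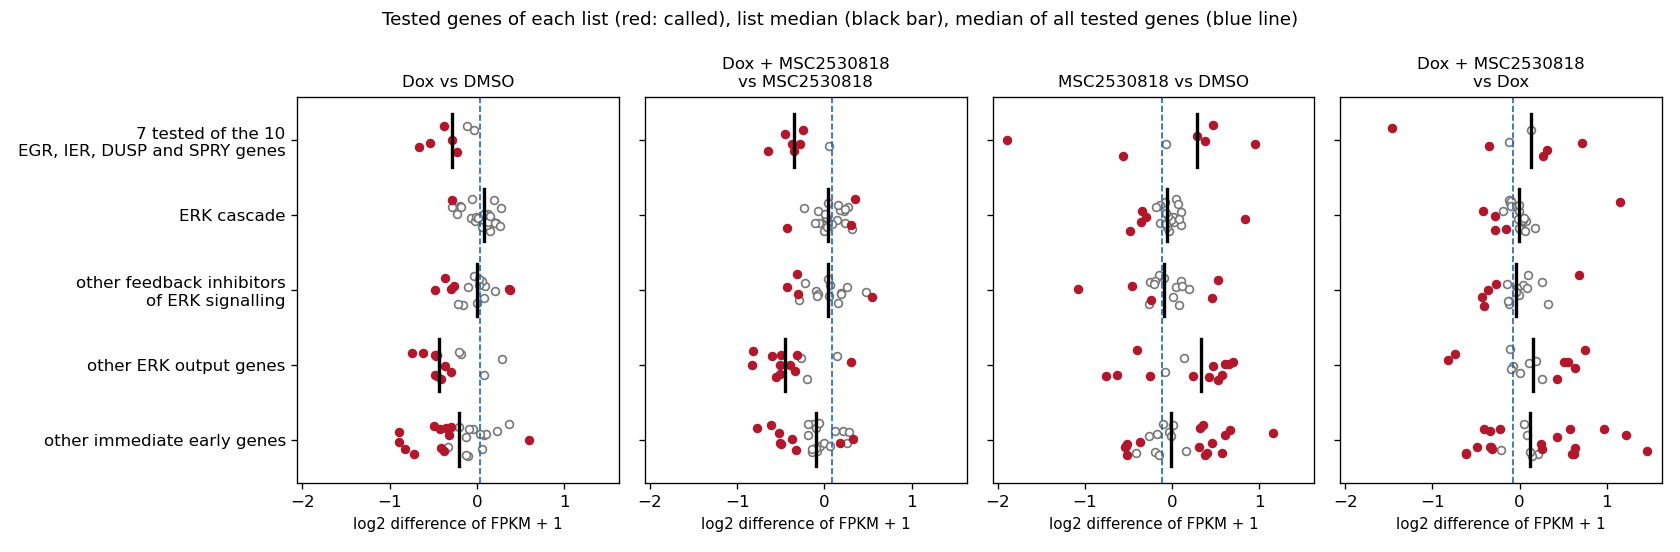
Difference of log2(FPKM + 1) of every tested gene (points; red, adjusted p under 0.05) of the 7 tested EGR, IER, DUSP and SPRY genes and of 4 pathway lists, with the list median (black bar) and the median of all tested genes (blue dashed line), in 4 comparisons. ERK output genes have a median of -0.43 for Dox against DMSO and of 0.33 for MSC2530818 against DMSO, while EGR1 is the lowest point at -1.89.

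For each gene the nearest others were those with the smallest root mean square difference of centred log2(FPKM + 1) over the 12 libraries. Nearest to EGR1 were the RNA gene MIR503HG (0.24, where EGR1 itself varied by 0.85), ELFN2 (0.27) and the calcium-binding protein gene S100A2 (0.28). MIR503HG averaged 3.17 ± 0.04 FPKM with Dox plus inhibitor, 9.15 ± 0.48 with Dox and 1.85 ± 0.10 with inhibitor, against 11.7 ± 1.9 in DMSO. Nearest to IER2 were CTDSP2 (0.11), APOBEC3B (0.15) and CBLN2 (0.16), and nearest to IER3 EVPL (0.06), EIF6 (0.10) and SH2B3 (0.10). DUSP1 lay nearest to SPINT2 (0.04), SLC2A1 (0.05) and BMP1 (0.05), DUSP5 to C17orf96 (0.06) and PADI1 (0.09), DUSP6 to TXNRD1 (0.06), GAS5 (0.07) and HAUS7 (0.07), and SPRY4 to GRK5 (0.07), SLC48A1 (0.08) and N4BP3 (0.08). No listed gene was nearest to more than 1 of the 7.

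GENCODE places genes on the opposite strand over parts of EGR3, IER2, IER3, DUSP1, DUSP6 and SPRY4, none of which has a row in the table. Libraries were made with a strand-specific kit, per the labels' protocols, but the use of strand in quantification is not given in the sources used here, so reads from these neighbours cannot be told apart from those of the genes named.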

How the data were processed

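Poly(A) RNA of 12 HK-2 libraries, 3 per group, was analysed from 1 table of FPKM values deposited by the authors, rounded to 2 decimals. Trim Galore 0.6.7, Salmon 1.9.0 and the builds GRCh38.p13 and hg38 are named in the submitters' processing notes, with no stated role. No source used here states the annotation or how FPKM were calculated. Columns were matched to samples by name. Values were analysed as log2(FPKM + 1), with a pseudocount of 1, without rescaling, in R 4.3.3 with limma 3.58.1: 1 model of 4 group means over 12 libraries (8 residual degrees of freedom), empirical Bayes moderation with an intensity trend, two-sided p-values adjusted by Benjamini-Hochberg over all 12649 tested genes (48% of the table), and calls under 0.05. The code was tested on simulated data for Dox against DMSO. Of 100 genes with a true log2 change of 1 it recovered 94, and of 100 with one of 0.5 it recovered 66. It called 9 unchanged genes. The changed genes were drawn only from genes more abundant in DMSO than DUSP6 and SPRY4, so these rates do not cover such low genes. The simulated noise was independent between libraries, without the shared deviations of the real ones. The absolute depth is unknown, so no counting intervals were given. The labels call the libraries independent biological replicates and give no batch.

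The genes described and the lists were chosen with earlier results of these data known. Named list genes are up to 3 called genes per list and comparison with the largest change, and nearest genes are the 3 closest per called gene, of which 1 is not reported here. Gene positions come from GENCODE 29 (GRCh38), promoters from RefSeq (GRCh38.p14). Replicate numbers were checked for pairing by the correlation of deviations from group means. For Dox plus inhibitor against inhibitor it was 0.55, 0.13 and 0.34 for numbers 1, 2 and 3, each over 0.1, and these were taken as paired. In the other comparisons at least 1 number was below that. For inhibitor against DMSO the values were 0.69, 0.097 and 0.51, so this pair missed the limit through number 2 only. Alternatives were other pseudocounts, filters, scalings, no trend, a replicate block, smaller fits, each library left out and, added after seeing the data, leaving out replicate 1 of all groups and removing a loess trend on transcript length and GC content.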

Additional observations from a re-analysis of the deposited data

Results flagged for a closer look

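No EGR, IER, DUSP or SPRY gene of the set had an interaction past the threshold. Of 82 tested genes of the pathway lists 3 did (3.66%), a share near the 2.82% of all tested genes, so the count is no result about the lists. For these 3 genes the Dox differences differed with and without the inhibitor by the test of that difference in limma. DUSP10, a phosphatase of p38 and JNK, had an interaction of -0.67 ± 0.11 (adjusted p = 0.0068). It averaged 8.17 ± 0.71 FPKM with Dox plus inhibitor and 10.3 ± 0.57 with inhibitor, and 9.11 ± 0.71 FPKM with Dox and 6.82 ± 0.34 in DMSO (SD, n = 3 each). CTGF had one of 0.80 ± 0.10 (adjusted p = 0.002), with 243 ± 2.0 FPKM with Dox plus inhibitor and 259 ± 29 with inhibitor, and 87.5 ± 4.2 FPKM with Dox and 163 ± 8.5 in DMSO. SGK1 had one of 0.76 ± 0.07 (adjusted p = 2.3e-04), with 111.8 ± 3.0 FPKM with Dox plus inhibitor and 116.3 ± 0.88 with inhibitor, and 47.5 ± 2.1 FPKM with Dox and 84.6 ± 2.6 in DMSO. All 3 held under the 23 alternatives that could be fitted, at -0.74 to -0.61 for DUSP10, 0.74 to 0.89 for CTGF and 0.69 to 0.82 for SGK1.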

How the results depend on the processing

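With 1 library left out in turn, the number of the 7 genes called ran from 2 to 5 for Dox without inhibitor, from 2 to 6 for Dox with it, from 3 to 5 for the inhibitor with Dox and from 0 to 1 for the interaction, and stayed at 6 for the inhibitor without Dox. Over all genes it ran from 1427 to 2665, from 1121 to 2920, from 3057 to 4478, from 186 to 420 and from 3683 to 5011. For Dox without inhibitor a mean FPKM of at least 5 left 4 of the genes to test, and 3 were called. Of all 7, 3 were called with the 2 groups fitted alone and without replicate 1 of all groups, and for Dox with inhibitor 3 were called without replicate 1 of all groups. The interaction had 1 call with length and GC trends removed, with or without the block. No called change of the 7 genes turned its sign under any alternative. With the replicate block all genes called numbered 3741 for Dox, 4548 for Dox with inhibitor and 666 for the interaction, and the block changed no call of the 7 genes. Except for Dox plus inhibitor against inhibitor, groups were not taken as paired. Inhibitor against DMSO correlated more strongly than that pair for numbers 1 and 3 (0.69 and 0.51), but at 0.097 for number 2. Of the 12 libraries, 8 correlated best with their own number. With trends removed and the block, 4119 genes were called for Dox and 1138 for the interaction, with trends removed alone 838 for the interaction, and with its 2 groups alone 1099 for Dox with inhibitor. The interaction, which uses all 4 groups, had no smaller fit. The cause was not tested. Without counts, depth sets no stated limit, and EGR2, EGR3 and DUSP4 were too low to be compared.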
